A study of Mus musculus with 108 samples.

Results

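The Active TSS state is the chromatin state in which H3K4me3 and H3K27ac occur together. It was followed here in mouse liver as 200 bp bins that were in this state (state 1 of 8) at 12 months and in neither state 1 nor state 2 (Flanking TSS) at 3 months. The members were chosen by these measured states, so the change of state itself is a description and was not tested. They were 6075 autosomal bins of 12313718, and they fell into 3 classes. In 1148 bins state 1 was gained on both diets (gained in both), in 3145 bins in SD 12m and not in CR 12m (SD only), and in 1782 bins in CR 12m and not in SD 12m (CR only).

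All animals were C57BL/6 female mice and the tissue was whole liver, fixed in formalin and embedded in paraffin. The groups were SD 3m (8 mice aged 3 months on standard diet, SD), SD 12m (8 mice aged 12 months on the same diet) and CR 12m (9 mice aged 12 months on 30% caloric restriction, CR). ChIP-seq of H3K4me3, H3K27ac, H3K4me1 and H3K27me3 gave 30, 29 and 29 libraries in these groups, and the reads of each group were merged into 1 segmentation. There are thus no replicates of a segmentation, and no test across mice could be made. Intervals are 95% Wilson intervals over bins, which cover counting error only, and ranges over the 19 autosomes are given beside them. Both 12-month groups were compared with the same SD 3m segmentation. The number of reads behind a state is unknown. The number of merged H3K4me3 libraries was 7 at 3 months, 8 in SD 12m and 5 in CR 12m, and that of H3K27ac libraries was 8, 7 and 9, so the number of libraries and the group cannot be told apart.

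H3K4me3 is placed at the start of genes by the SET1 and MLL methyltransferases, and H3K27ac by the acetyltransferases p300 and CBP. A region with H3K27ac or H3K4me1 and little H3K4me3 is typical of an enhancer, and the addition of H3K4me3 gives it the marks of an active promoter. In liver the promoters of genes for gluconeogenesis, plasma proteins and drug metabolism carry these marks in hepatocytes, and many of them respond to fasting, feeding, hormones and the time of day. The other states are state 3 and state 4 (Active enhancers, with H3K27ac and, in state 3, H3K4me1), state 5 (Poised enhancer, with H3K4me1), state 6 (Repressed Polycomb, with H3K27me3), state 7 (named for repeats and lamina-associated domains by the study, with weak H3K4me3) and state 8 (Quiescent).

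The promoters of 5 genes carry much of what follows, and the 200 bases before their TSS (RefSeq, GRCm38.p6) are shown because they span the kinds of promoter found among the members. Each is written 5′ to 3′ on the strand of the gene, with CpG dinucleotides in capitals.
Pck1 (chr2:173152873-173153072, plus strand): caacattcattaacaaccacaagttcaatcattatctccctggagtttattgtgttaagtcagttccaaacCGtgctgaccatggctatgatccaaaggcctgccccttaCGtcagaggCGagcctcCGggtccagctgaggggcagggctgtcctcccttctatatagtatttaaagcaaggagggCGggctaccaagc
Hamp (chr7:30944030-30944229, minus strand): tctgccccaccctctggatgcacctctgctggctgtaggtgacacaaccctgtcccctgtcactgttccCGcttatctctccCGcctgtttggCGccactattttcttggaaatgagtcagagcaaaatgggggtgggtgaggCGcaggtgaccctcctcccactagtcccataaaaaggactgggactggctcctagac
Hnrnpa0 (chr13:58128557-58128756, minus strand): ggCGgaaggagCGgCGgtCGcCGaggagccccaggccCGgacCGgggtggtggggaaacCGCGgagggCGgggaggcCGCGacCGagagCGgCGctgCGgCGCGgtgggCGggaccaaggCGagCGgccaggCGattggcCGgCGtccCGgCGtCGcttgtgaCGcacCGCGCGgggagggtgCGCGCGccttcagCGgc
Npas2 (chr1:39194072-39194271, plus strand): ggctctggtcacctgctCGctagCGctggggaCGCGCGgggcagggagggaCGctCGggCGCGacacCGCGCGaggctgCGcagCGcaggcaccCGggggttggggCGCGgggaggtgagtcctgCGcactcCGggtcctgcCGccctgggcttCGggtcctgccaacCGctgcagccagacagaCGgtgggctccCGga
Sult2a3 (chr7:14123049-14123248, minus strand): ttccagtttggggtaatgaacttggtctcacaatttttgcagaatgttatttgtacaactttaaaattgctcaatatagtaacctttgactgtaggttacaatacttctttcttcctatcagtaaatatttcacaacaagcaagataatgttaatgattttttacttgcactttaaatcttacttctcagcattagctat
The Hnrnpa0 sequence holds 35 CpG and that of Npas2 holds 24, against 5 for Pck1, 4 for Hamp and 0 for Sult2a3. All of the bases shown for Pck1 and Hnrnpa0 lay in bins gained on both diets. Those of Npas2 all lay in bins gained in SD 12m, those of Sult2a3 all in bins gained in CR 12m, and 85.5% of those of Hamp in bins gained in CR 12m and 0% in bins gained in SD 12m.

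Pck1 had the stretch with the most bins gained in both. It encodes the cytosolic phosphoenolpyruvate carboxykinase, which commits oxaloacetate to gluconeogenesis and is induced by glucagon and glucocorticoids. An unbroken stretch of 18 bins (chr2:173152601-173156200, 3600 bp, mm10) from just before the TSS into the gene body was in state 4 (5 bins) and state 8 (13 bins) in SD 3m. In SD 12m all 18 bins were in state 1. In CR 12m 14 of them were in state 1, 1 was in state 3 and 3 were in state 4. No bin in state 1 or 2 was found in SD 3m within 39.4 kb of the stretch, and 12 of the 18 bins overlapped an exon. Of the 10 bins with their centre within 1 kb of the TSS, 0 were in state 1 at 3 months, 7 in SD 12m and 6 in CR 12m. Just before the TSS, the 200 bases shown include the motif TTACGTCA, the cAMP response element of this promoter, which was present in 0.657% of 18270 autosomal promoters. This motif was added to the search after the data were seen.

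**Figure D1:**
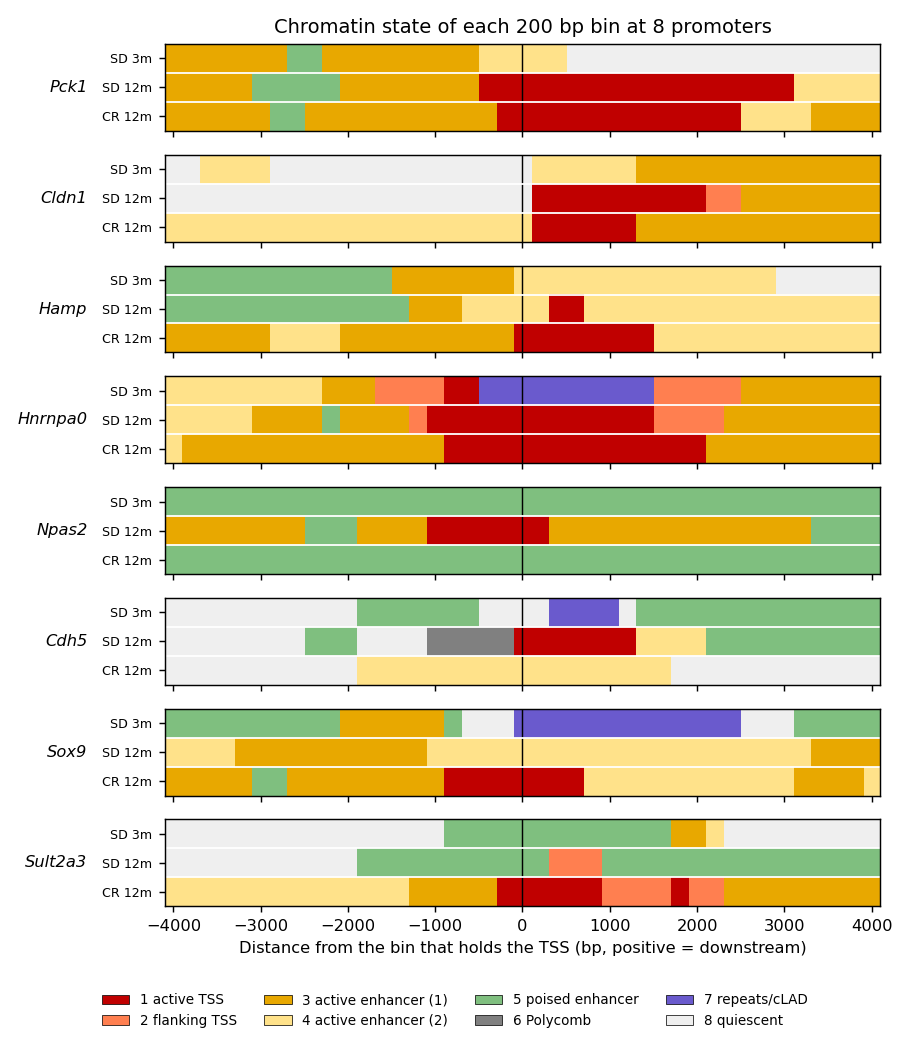
Chromatin state of each 200 bp bin from 4000 bp before to 4000 bp after the bin that holds the TSS (x axis, in the direction of transcription) at 8 promoters, with 1 row per group and 1 colour per state. The red of state 1 is absent in SD 3m at all of them but Hnrnpa0. It appears on both diets at Pck1, Cldn1 and Hamp, in SD 12m at Npas2 and Cdh5, and in CR 12m at Sox9 and Sult2a3.

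Among the autosomal bins in state 1, the gained bins were a minority. SD 12m had 46571 autosomal bins in state 1, of which 4293 (9.22%, Wilson 8.96 to 9.48%) were gained, with a range of 5.62 to 15.8% over chromosomes. CR 12m had 38344, of which 2930 (7.64%, Wilson 7.38 to 7.91%) were gained, with a range of 5.06 to 13.3%. The remainder had been in state 1 already (69.7% and 70.9%) or in state 2 (21.1% and 21.4%) in SD 3m. Bins that moved from state 2 to state 1, which lie just outside the choice of members, numbered 9820 for SD 12m and 8220 for CR 12m. State 1 had 52850 bins in SD 3m, and the bins that left it for states 3 to 8 were 4.21 times as many as those gained in SD 12m and 7.40 times as many as those gained in CR 12m.

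The bins gained in both were 26.7% of those gained in SD 12m and 39.2% of those gained in CR 12m. SD only was the larger class, with 51.8% of the members (Wilson 50.5 to 53.0%) against 29.3% for CR only (28.2 to 30.5%). SD only bins outnumbered CR only bins on 17 of 19 chromosomes, and the share of SD only ranged from 33.7% on chromosome 19 to 71.2% on chromosome 10. In the other diet group most of these bins were in enhancer states, though often not in that of SD 3m. Of the SD only bins, 63.7% were in states 3 to 5 in CR 12m (36.4% in state 4 and 5.91% in state 5) and 3.91% were in state 2. Of the CR only bins, 65.7% were in states 3 to 5 in SD 12m and 6.00% were in state 2. The state in the other diet group was the same as in SD 3m for 44.1% of SD only bins and 57.7% of CR only bins.

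The gained bins came from enhancer states and from state 7. In SD 3m 1283 of the 6075 bins were in state 3, 1359 in state 4, 1156 in state 5, 82 in state 6, 1803 in state 7 and 392 in state 8. States 3 to 5 thus held 62.5% of them (Wilson 61.3 to 63.7%), with a range of 46.3 to 79.0% over chromosomes. Relative to their size in SD 3m, state 7 gave the most, with 76.3 gained bins per 10000 bins, against 10.5 for state 3, 16.4 for state 4, 16.7 for state 5, 0.806 for state 6 and 0.483 for state 8. By class, bins gained in both were in state 7 in 36.9% (Wilson 34.2 to 39.8%) and in state 4 in 31.4% (28.7 to 34.1%), and in state 5 in 13.9%. Of the SD only bins 29.0% had been in state 7, 18.1% in state 4 and 22.5% in state 5. CR only bins had 26.2% in state 7, 24.1% in state 4 and 16.2% in state 5. State 3 held 11.9% of the bins gained in both, 22.4% of SD only bins and 24.7% of CR only bins. The share from state 7 was higher in both than in SD only on 14 of 19 chromosomes, and the share from state 5 was lower on 16 of them.

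**Figure D2:**
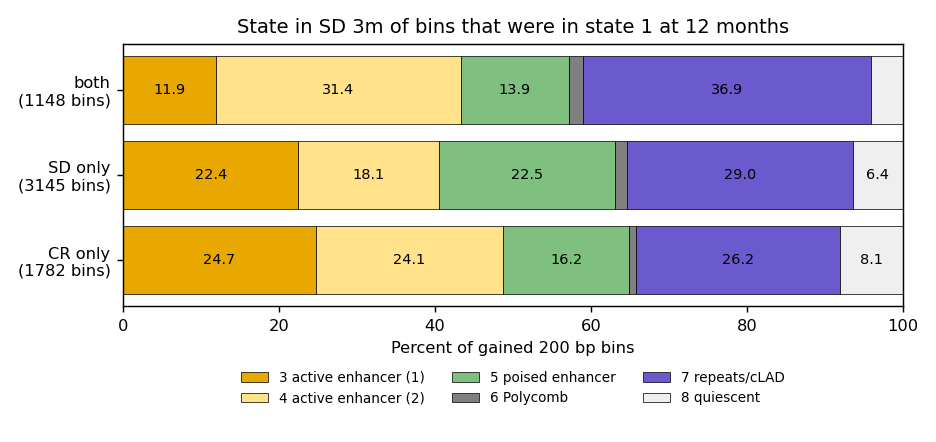
State in SD 3m (colours, states 3 to 8) of the bins gained in both, SD only and CR only, as the percent of the 200 bp bins of each class (x axis). State 7 is the widest part of each bar, at 36.9%, 29.0% and 26.2%, and state 4 is wider in the bins gained in both (31.4%) than in SD only bins (18.1%).

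Most gained bins lay beside regions that were in state 1 or 2 at 3 months. Of all members, 62.8% (Wilson 61.6 to 64.0%) were within 1 kb of a bin in state 1 or 2 in SD 3m, 30.3% touched such a bin and 23.7% lay more than 5 kb from any. The share within 1 kb was 74.0% for bins gained in both, 57.6% for SD only and 64.7% for CR only, and it was higher in both than in SD only on 16 of 19 chromosomes. The members formed 2523 unbroken stretches, of which 1259 (49.9%) were a single bin and 290 had at least 1 kb. By their position, 1644 stretches (65.2%) extended a state 1 or 2 region of SD 3m on 1 side and 100 (3.96%) filled a gap between such regions. A further 354 were separate but within 5 kb of such a region, and 425 (16.8%) were more than 5 kb away. The filled gaps were longer (median 800 bp) than the extensions (median 200 bp), and they held 17.0% of the bins gained in both but 3.56% of SD only bins and 9.26% of CR only bins.

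The filled gaps include a promoter with a high GC content that was labelled state 7 at 3 months. At Hnrnpa0, which encodes an RNA-binding protein, a stretch of 10 bins over the TSS (chr13:58127001-58129000) was in state 7 in SD 3m and in state 1 in both SD 12m and CR 12m, with state 1 or 2 on both sides at 3 months. The GC content of the stretch was 71.1%. Dyrk2, a protein kinase gene, had 7 of the 10 bins around its TSS gained on both diets, all from state 7. The same count was found at Cadps2, which acts in the release of dense-core vesicles. Ankrd11, a chromatin regulator, and Tob1, an antiproliferative gene, each had 6 such bins, again from state 7. These genes, with Pck1, were the 6 protein-coding genes with the most bins gained in both near the TSS. Pck1 was the only one of the 6 without state 1 or 2 within 1 kb at 3 months, as 3 to 4 of the 10 bins were in these states at Dyrk2, Hnrnpa0, Ankrd11 and Tob1, and 2 at Cadps2. At the other 5 the gained bins thus lay between or beside bins that were already in state 1 or 2.

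Of the members 2345 (38.6%, Wilson 37.4 to 39.8%) had their centre within 1 kb of the TSS of a RefSeq gene, against 1.87% of all autosomal bins and 83.4% of the 24621 bins in state 1 in all 3 groups. By class the share was 53.8% for bins gained in both, 33.4% for SD only and 38.0% for CR only. It was higher in both than in SD only on 18 of 19 chromosomes and higher than in CR only on 17, and it was lower in both than in bins in state 1 in all 3 groups on 19 of 19. The median distance to a TSS was 866 bp for bins gained in both, 4876 bp for SD only, 2168 bp for CR only and 314 bp for bins in state 1 in all 3 groups. Within 1 kb, 68.9% of bins gained in both lay downstream of the TSS (Wilson 65.2 to 72.4%), against 54.4% of SD only bins (51.4 to 57.4%), 56.3% of CR only bins and 70.5% of bins in state 1 in all 3 groups. Of all members 25.6% overlapped an exon, 36.2% lay in a gene body without overlapping an exon and 38.2% were intergenic. For bins in state 1 in all 3 groups these shares were 56.3%, 25.8% and 17.9%.

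**Figure D3:**
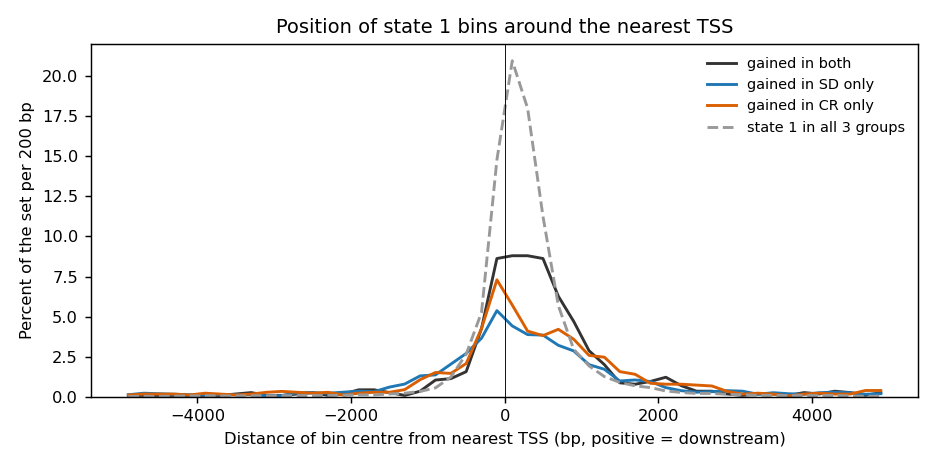
Percent of the bins of each set (y axis) by the distance of the bin centre from the nearest TSS (x axis, in 200 bp steps, positive values downstream), for bins gained in both, SD only and CR only (solid lines) and for bins in state 1 in all 3 groups (dashed line). Bins gained in both sit mainly downstream of the TSS (68.9% of those within 1 kb). The SD only and CR only lines are lower than theirs over the first 1 kb downstream and higher from 500 to 900 bp upstream. They are closer to even on the 2 sides.

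The origin of the bins near and away from a TSS also differed. Within 1 kb of a TSS 33.5% of the gained bins had been in state 4 and 16.5% in state 7. Farther away 15.4% had been in state 4 and 38.0% in state 7. In sequence, the gained bins lay between the genome and the constitutive state 1 bins. The CpG observed to expected ratio was 0.566 for all members, 0.697 for bins gained in both, 0.498 for SD only and 0.572 for CR only, against 0.822 for bins in state 1 in all 3 groups and 0.194 for all autosomal bins. The GC content was 57.1%, 50.4% and 51.1% in the 3 classes, against 63.9% and 41.9%. The order of the classes was the same within 1 kb of a TSS, with ratios of 0.795, 0.689 and 0.751, and beyond it, with 0.477, 0.326 and 0.387. Repeats took up 21.7% of the bases of the gained bins, 8.88% of those in state 1 in all 3 groups and 33.5% of the autosomal bases. Members that had been in state 7 had 29.0% repeats, against 44.5% over all autosomal bins in state 7 in SD 3m, and a CpG ratio of 0.548 against 0.180.

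**Figure D4:**
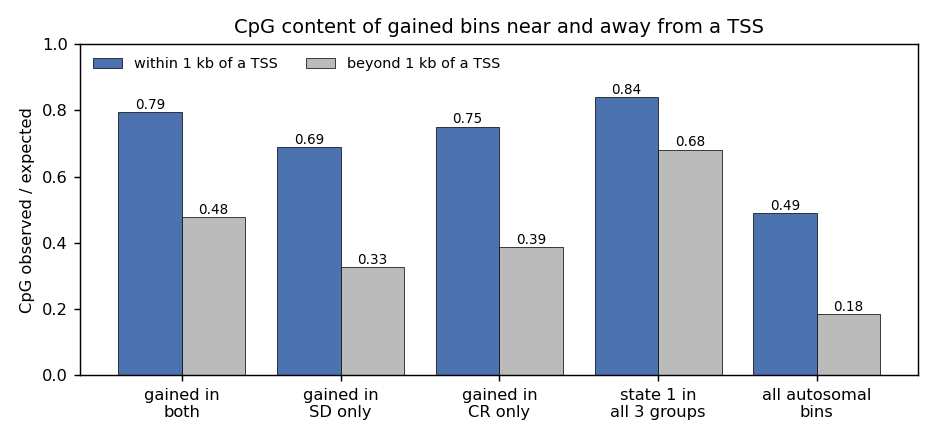
Ratio of observed to expected CpG dinucleotides (y axis) in bins within 1 kb of a TSS (blue) and beyond it (grey), for the 3 classes of gained bins, bins in state 1 in all 3 groups and all autosomal bins. Gained bins lie above the autosomal bins and below the bins in state 1 in all 3 groups on both sides of the 1 kb limit.

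The promoters of the genes concerned were richer in CpG than all autosomal promoters. A RefSeq promoter (250 bases before to 50 after the TSS) was matched for 958 of the 1289 genes with a gained bin within 1 kb. The median CpG ratio was 0.755 for these and 0.565 for 18270 autosomal promoters. It was 0.664 for the 118 with a gained bin whose genes had no state 1 or 2 within 1 kb in SD 3m. Both strands were searched for 5 short motifs. The GC box GGGCGG was found in 66.6% of the promoters with a gained bin and in 45.5% of all promoters, and the TATA box TATAAA in 8.04% and 13.1%. For CCAAT the shares were 36.6% and 39.0%, for TTGCNNAA, a motif of the C/EBP factors, 9.71% and 10.2%, and for CAAAGTCC, a motif of HNF4A, 2.30% and 1.43%. The GC box overlaps with CpG content, as the motif itself holds a CpG. A match is a description of the letters and not a sign of binding. Of the 1289 genes 170 had no state 1 or 2 within 1 kb in SD 3m, against 13081 of 24963 autosomal genes. Promoters with state 1 or 2 at 3 months were not measured as a set. Whether the higher CpG and GC box values are particular to genes with a gained bin was thus not tested. Within 1 kb of a TSS the CpG ratio was 0.738 for gained bins and 0.839 for bins in state 1 in all 3 groups.

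Over genes, 1289 of 24963 autosomal genes (5.16%) had a gained bin within 1 kb of the TSS. For SD 12m there were 936 (3.75%), for CR 12m 722 (2.89%), and 360 (1.44%) had a bin gained in both. Divergent genes can share a bin and are each counted. Most of the 1289 had state 1 or 2 near the TSS at 3 months. Of them, 170 (13.2%) had none within 1 kb in SD 3m, of which 151 were protein-coding. Of the 13081 genes without state 1 or 2 within 1 kb in SD 3m, 1.30% had a gained bin, against 9.42% of the 11882 genes with it. By comparison, 576 genes with state 1 near the TSS in SD 3m had neither state 1 nor 2 there in SD 12m, and 994 in CR 12m.

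Genes of gluconeogenesis, amino acid breakdown and the urea cycle had gained bins in 9 of 30 cases (30.0%, against 5.16% of all autosomal genes). In SD 12m there were 7 and in CR 12m 6. Of the 30 genes, 25 had state 1 or 2 near the TSS at 3 months, and the share among all such genes was 9.42%. Besides Pck1, the group includes Fbp1, which encodes fructose-1,6-bisphosphatase, with 4 of 10 bins around the TSS in state 1 at 3 months, 8 in SD 12m and 7 in CR 12m. Sds, the serine dehydratase gene, had 0, 6 and 2 bins in state 1, and in what follows 3 numbers in a row are given in this order of groups (SD 3m, SD 12m, CR 12m) and count bins in state 1 among the 10 around a TSS. Agxt, for the peroxisomal alanine-glyoxylate aminotransferase, had 0, 3 and 0 bins. Cth, for cystathionine gamma-lyase, had 5, 5 and 9. Of the 9 genes, Pck1, Sds, Agxt and Hal had no bin in state 1 or 2 within 1 kb at 3 months. Summed over the 30 genes, bins in state 1 around the TSS numbered 89 at 3 months, 116 in SD 12m and 110 in CR 12m, and those in state 1 or 2 together numbered 178, 178 and 179. The sum of both TSS states was thus nearly level while state 1 took a larger share of it at 12 months.

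The axis of growth hormone, IGF and insulin had 6 of 22 genes with gained bins (27.3%, against 5.16% of all autosomal genes). Of the 22 genes, 19 had state 1 or 2 near the TSS at 3 months, and the share among all such genes was 9.42%. Irs2, the insulin receptor substrate that is induced by fasting, had 1 of 10 bins in state 1 at 3 months, 4 in SD 12m and 9 in CR 12m. Irs1, the related substrate, had 3, 6 and 4. Igfbp1, a fasting-induced binding protein of IGF1, had 3, 5 and 6, and Igfbp2 had 2, 4 and 4. The growth hormone receptor gene Ghr had 4, 4 and 5, and the prolactin receptor gene Prlr 2, 3 and 2. In this group Irs2 was higher in CR 12m than in SD 12m by 5 bins and Irs1 lower by 2.

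Plasma protein genes of hepatocytes had gained bins in 11 of 44 cases (25%, against 5.16% of all autosomal genes). Of the 11, 6 had a bin gained in both. State 1 or 2 was near the TSS of 40 of the 44 at 3 months, and 9.42% of such genes had a gained bin. Of the fibrinogen genes, Fgb had 3, 5 and 6 bins and Fgg 4, 7 and 6. Serpina1c, an alpha-1-antitrypsin gene, had 0, 5 and 4 bins and was in state 7 at the TSS at 3 months. Serpina1a had 4, 3 and 7. These are near-identical copies, so their separate values are uncertain. Apoa1, the main apolipoprotein of HDL, had 2 bins at 3 months, 5 in SD 12m and 0 in CR 12m, where 4 bins were in state 2. Alb had no gained bin, with 4, 3 and 0 bins in state 1. Hamp, for the iron hormone hepcidin, belongs to the acute phase list, where 2 of 25 genes had a gained bin (8%, against 5.16% of all autosomal genes). The other was Fgb, which is in both lists. Hamp had 0, 2 and 6 bins, with the TSS in state 4 in SD 3m and SD 12m and in state 1 in CR 12m.

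The cytochrome P450 genes of drug metabolism had gained bins in 9 of 33 cases (27.3%, against 5.16% of all autosomal genes). There were 4 in SD 12m (12.1%, against 3.75% of all genes) and 8 in CR 12m (24.2%, against 2.89%). State 1 or 2 was near the TSS of 23 of the 33 at 3 months, and 9.42% of such genes had a gained bin. Cyp2e1, which oxidises ethanol and ketones, had 3 bins in state 1 at 3 months, 5 in SD 12m and 6 in CR 12m. Those at Cyp2a5 and Cyp2b13 were gained in CR 12m and not in SD 12m, with 0, 0 and 2 bins at each. Cyp2c40 had 0, 0 and 1. Cyp4a14, a fatty acid hydroxylase gene and target of PPARA, had 0, 4 and 1. Other genes of the list had fewer bins in state 1 at 12 months, such as Cyp2c50 with 7, 1 and 4 and Cyp3a25 with 6, 3 and 3. Summed over the 33 genes, bins in state 1 numbered 50, 39 and 53. Those in state 1 or 2 together numbered 113, 97 and 114. Sult2a3, a hydroxysteroid sulfotransferase gene outside the lists, was among the 6 genes with the most CR only bins. It had 0 bins in state 1 in SD 3m, 0 in SD 12m, where 3 were in state 2, and 6 in CR 12m. The Cyp2 and Sult2a genes belong to clusters of similar copies, and their bins rest on reads that could be placed.

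Bile acid genes had gained bins in 4 of 20 cases (20%, against 5.16% of all autosomal genes). State 1 or 2 was near the TSS of 18 of the 20 at 3 months, and 9.42% of such genes had a gained bin. Cyp7a1, the rate-limiting enzyme of bile acid synthesis, had 0 bins in state 1 at 3 months, 3 in SD 12m and 5 in CR 12m, of which 1 was a member, since 4 bins were in state 2 in SD 3m. Abcb4, the phospholipid exporter of bile, had 1, 5 and 3. Abcg5, which had no gained bin, had 9, 6 and 0. Summed over the 20 genes, bins in state 1 numbered 49, 57 and 41. Those in state 1 or 2 together numbered 114, 109 and 96. Fatty acid oxidation and ketogenesis had 5 of 31 (16.1%), with Acaa1b, a peroxisomal thiolase, at 2, 5 and 7 bins. Of these 5 genes, Cyp4a10 and Cyp4a14 are also among the P450 genes above. Fatty acid and sterol synthesis had 0 of 31. Each of these lists had 28 genes with state 1 or 2 near the TSS at 3 months. Among all such genes 9.42% had a gained bin. The summed bins in state 1 of the synthesis genes numbered 92 at 3 months, 74 in SD 12m and 57 in CR 12m. For oxidation the sums were 59, 87 and 70. With state 2 counted as well, the sums were lower at 12 months in both lists, at 167 and 153 against 234 for synthesis and at 177 and 163 against 209 for oxidation. No test was made of these sums.

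The circadian clock list had 3 of 19 genes with gained bins (15.8%, against 5.16% of all genes and 9.42% of those with state 1 or 2 at 3 months), with 2 on the standard diet and 1 under restriction. Npas2, which encodes a partner of BMAL1, shared with Zfp872 the highest number of SD only bins among protein-coding genes, 7. All 10 bins around its TSS were in state 5 in SD 3m and in CR 12m, while in SD 12m 7 were in state 1 and 3 in state 3. Arntl, which encodes BMAL1 itself, had 2 bins in state 1 at 3 months, 7 in SD 12m and 1 in CR 12m. Nfil3, a transcriptional repressor, had 8, 8 and 9, with 2 CR only bins. The other 16 genes of the list had no member near the TSS. Among them Dbp had 6, 0 and 10 bins in state 1, Bhlhe40 had 8, 4 and 10, and Bhlhe41 had 5, 0 and 5. Others were not higher in CR 12m than in SD 12m, such as Clock with 8, 10 and 7, Rora with 8, 4 and 2, and Nr1d2 with 5, 3 and 3. Summed over the 19 genes, bins in state 1 numbered 69, 57 and 67. Those in state 1 or 2 together numbered 147, 101 and 105.

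**Figure D5:**
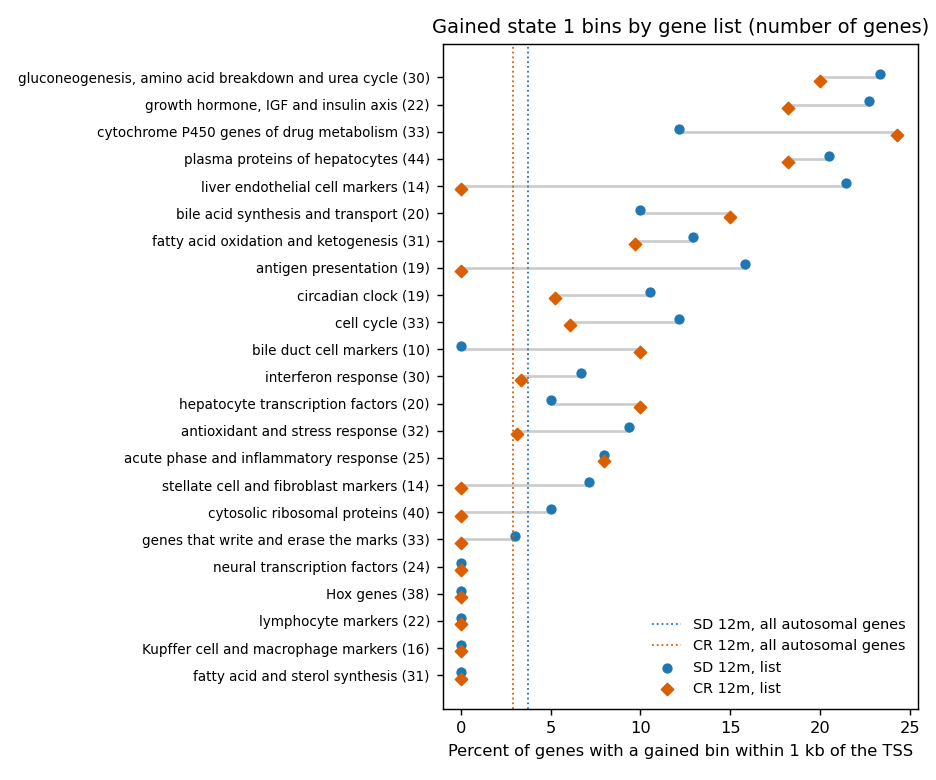
Percent of the autosomal genes of each list (x axis, number of genes in brackets) with a bin gained in SD 12m (blue circles) or in CR 12m (orange diamonds) within 1 kb of the TSS, with dotted lines at 3.75% and 2.89% for all autosomal genes. Gluconeogenesis (23.3% and 20%), the growth hormone axis (22.7% and 18.2%) and plasma proteins (20.5% and 18.2%) lie to the right of the lines on both diets, 5 lists (endothelial markers, antigen presentation, stellate cell markers, ribosomal proteins and the genes that write and erase the marks) are above 0% in SD 12m and at 0% in CR 12m, and another 5 are at 0% on both diets.

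Markers of some other cell types had members too, and their part in the SD only and CR only classes was not tested. Liver endothelial markers had gained bins in 3 of 14 genes in SD 12m (21.4%, against 3.75% of all genes) and in 0 in CR 12m. At 3 months 10 of the 14 had state 1 or 2 near the TSS. Of all such genes 9.42% had a bin gained in SD 12m or CR 12m. Among all genes with a gained bin, 567 (44.0%) had one in SD 12m and none in CR 12m. Cdh5, the cadherin of endothelial junctions, had 0 bins in state 1 at 3 months, 5 in SD 12m and 0 in CR 12m. Kdr, the main receptor of VEGF, had 1, 5 and 0, and Stab1, a scavenger receptor of sinusoids, 1, 6 and 1. Summed over the 14 genes, bins in state 1 numbered 16 at 3 months, 29 in SD 12m and 15 in CR 12m, while bins in state 1 or 2 together numbered 49, 46 and 25. Other markers of the list did not follow Cdh5 and Kdr. Tek had 3, 0 and 3 bins in state 1 and Stab2 had 3, 2 and 1, while Pecam1 had 6, 4 and 0 bins in state 2. Lyve1, Clec4g and Vwf had none in state 1 or 2 in any group. Antigen presentation had 3 of 19 genes in SD 12m (15.8%, against 3.75% of all genes) and 0 in CR 12m. All 3 were class I genes of the H2-Q cluster of similar copies. Of the 19 genes, 17 had state 1 or 2 near the TSS at 3 months, and the share among all such genes was 9.42%. Kupffer cell and macrophage markers had 0 of 16, with 13 of them at 0 in all groups, and lymphocyte markers 0 of 22, with 21 at 0. Stellate cell markers had 1 of 14 (7.14%, against 5.16% of all autosomal genes), which was Rgs5 with 0, 1 and 0 bins. Bile duct markers had 1 of 10 (10%, against 5.16%), which was Sox9. Of all protein-coding genes Sox9 had the most CR only bins, with 0, 0 and 8 bins in state 1. Krt7, Krt19, Epcam and Spp1 had no bin in state 1 or 2 in any group, and the summed state 1 bins of the list were 13, 12 and 16. In whole liver, a change in the number of cells of a type and a change in the marks per cell cannot be told apart.

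Neural transcription factors had 0 of 24 genes with a gained bin and Hox genes 0 of 38, near the 1.30% of all genes without state 1 or 2 at 3 months. None of the 24 neural genes and 4 of the 38 Hox genes had state 1 or 2 within 1 kb at 3 months, and the promoters of Pax6 and Neurod1 were in state 6 in all 10 bins in the 3 groups. Hepatocyte transcription factors had 2 of 20 (10%). Of the 20 genes, 17 had state 1 or 2 near the TSS at 3 months, and the share among all such genes was 9.42%. The 2 were Foxa1, a pioneer factor, with 4, 3 and 9 bins in state 1 and Onecut1 with 5, 9 and 6. Cytosolic ribosomal protein genes, which are active in all cells, had 2 of 40 (5%), and genes that write and erase the marks 1 of 33 (3.03%). Of all autosomal genes 5.16% had a gained bin. Cell cycle genes had 4 of 33 (12.1%), the antioxidant and stress response 3 of 32 (9.38%) and the interferon response 3 of 30 (10%), near the 9.42% of genes with state 1 or 2 at 3 months. The summed state 1 bins of the cell cycle genes were 105, 96 and 59, and those in state 1 or 2 together were 198, 125 and 84.

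Other promoters with SD only bins were those of Zfp872, a zinc finger gene, Chil4, a chitinase-like gene, Fat4, a large cadherin, Tymp, thymidine phosphorylase, and Ccdc88c, a regulator of Wnt signalling. They had 7, 6, 6, 6 and 5 SD only bins around the TSS, and 0 bins in state 1 in CR 12m. Chil4, Fat4 and Tymp had no bin in state 1 or 2 in SD 3m either. With CR only bins stood Erbb4, a receptor of neuregulins (1, 0 and 8 bins in state 1), Afdn, a junction protein (2, 3 and 8), Ccdc85c (4, 4 and 9) and 4931408C20Rik (0, 4 and 10). Cldn1, a claudin of tight junctions, had a stretch of 10 bins just downstream of its TSS (chr16:26369801-26371800) that was in states 3 and 4 in SD 3m. All 10 were in state 1 in SD 12m and 6 of them in CR 12m, and the nearest state 1 or 2 bin in SD 3m was 210.2 kb away.

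Away from promoters, the stretches with the most SD only bins held 19 to 58 gained bins. In an intron of Ppm1h, a protein phosphatase gene on chromosome 10, a stretch of 58 bins (chr10:122871201-122882800, 11600 bp) had 48 SD only bins, 7 gained in both and 3 CR only. In SD 3m it was in states 5, 7 and 8, and in CR 12m 48 of its bins were in state 7. A second stretch in the gene (chr10:122736801-122744600) had 39 bins, all in state 5 at 3 months, in state 1 in SD 12m and in state 7 in CR 12m. A further 28 bins at chr10:122848001-122853600 were in state 7 in both other groups. Exons were overlapped by 2 of the 58 bins and by 0 of the 39 and of the 28. Intergenic stretches of 33 bins (chr2:137646001-137652600, nearest TSS Gm14062) and 19 bins (chr2:177315201-177319000, nearest TSS Gm14410) were in state 1 in SD 12m and in state 7 in both other groups. The 1 Mb window that holds the Ppm1h stretches had 194 members, or 3.19% of all, of which 160 were SD only. The next window, on chromosome 16 at Filip1l and Cmss1, had 147, of which 77 were SD only, 51 CR only and 19 in both. A stretch of 22 SD only bins there (chr16:57393001-57397400) had been in states 3 and 5. The median of the 1201 windows with any member was 3. Without these 2 windows 5734 members were left, of which 2908 were SD only, and 40.8% lay within 1 kb of a TSS. A window was chosen here for its count, which is a description.

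Of the 6 stretches with the most CR only bins, 3 lay in Zfp445, a zinc finger gene on chromosome 9, with 19, 12 and 11 CR only bins in neighbouring stretches between chr9:122851201-122855000 and chr9:122858801-122861400. In SD 3m all of their bins were in state 7, and in SD 12m all but 2 still were. Exons were overlapped by 16 of the 19 bins of the first stretch. An intergenic stretch near 4930562C15Rik (chr16:4818401-4822800) had 17 CR only and 5 SD only bins, all from state 7, with 56.5% repeats. A stretch of 11 bins far from genes (chr19:17311001-17313200, nearest TSS Gcnt1 at 60744 bp) went from states 3 and 5 in SD 3m to state 1 in CR 12m. In SD 12m it was in states 2 and 3. Inside Pde4dip 10 CR only bins (in chr3:97722601-97725200) came from states 7 and 8.

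Of the stretches gained in both away from any state 1 or 2 of SD 3m, that in Mecom, which encodes the transcription factor EVI1, was the farthest. Its 12 bins (chr3:30011001-30013400) were all in state 6, the Polycomb state, in SD 3m, and no state 1 or 2 was found within 582 kb. In SD 12m all 12 were in state 1, and in CR 12m 10 were, with the outer 2 in state 5. Exons were overlapped by 5 of these bins. Only 82 of the 6075 members came from state 6. At Gm2061, a lncRNA gene that is divergent from the manganese transporter gene Slc30a10, 9 bins (chr1:185455001-185456800) were in states 3, 4 and 8 in SD 3m, and 9 were in state 1 in SD 12m and 5 in CR 12m. Stretches near Cyp3a41a (chr5:145689401-145691000, 8 bins, 70.1% repeats) and Gm10319 (7 bins) came from state 7. Other long stretches gained in both were not away from these states but touched state 1 or 2 bins of SD 3m. One had its midpoint 23454 bp upstream of the TSS of Cp, the gene of ceruloplasmin. Its 20 bins (chr3:19931601-19935600) were in state 7 at 3 months, all in state 1 in SD 12m and 13 of them in CR 12m. The remaining ones were intergenic and from state 7, with state 1 or 2 on both sides at 3 months. They had 13 bins on chromosome 2 near 1700084E18Rik and 16 on chromosome 6 near Amn1, of which 10 were gained in both.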

How the data were processed

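Chromatin states were analysed in 3 segmentations of mouse liver from ChIP-seq of 4 histone marks. Per the labels and the methods of the study, the authors aligned reads to mm10 with bwa 0.6.2-r126. They removed reads of mapping quality 0, duplicates and reads outside chromosomes 1 to 19 and X with samtools 0.1.18, and merged the replicates of each group. ChromHMM was run with 8 states, and the state of every 200 bp bin was deposited. The deposited value is thus a label, without depth. SD 6m was not analysed here.

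Bins were selected, joined into stretches and measured in Python 3.11.15 with numpy 2.4.6 and scipy 1.17.1, with figures in matplotlib 3.10.9. The functions were tested on a simulated segmentation. A TSS was the start of the curated RefSeq transcript with the longest genomic span of each of 26089 genes (24963 autosomal) in GRCm38.p6, whose chromosome lengths match the bins. Genes with an alternative promoter can therefore be measured away from the promoter used in liver. A bin was near a TSS when its centre was within 1 kb. Promoter sequences were matched within 100 bp of this TSS. Symbols of 5 genes of the 23 lists had no autosomal TSS and were left out. Some genes are in several lists and are counted in each.

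A motif and a stretch on chromosome X are not reported here. The members and lists were chosen with earlier results of these data known. Named were the 6 stretches and the 6 protein-coding genes with the most bins of each class, the 6 stretches gained in both with no state 1 or 2 of SD 3m within 5 kb, members of the lists, and Alb, Apoa1, Pax6 and Neurod1. No test was made, as each group has 1 segmentation.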

Additional observations from a re-analysis of the deposited data

Results flagged for a closer look

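Chromosome X, which the choice of members leaves out, held 302 bins that gained state 1 by the same rule, and was looked at because no comparison of the report uses it. Of these 83 were gained in both, 84 in SD only and 135 in CR only. CR only was thus 44.7% of the gained bins on X against 29.3% on the autosomes, and SD only 27.8% against 51.8%. The density was 1.77 gained bins per Mb on X and 2.47 on the autosomes, and 87 of 1126 genes on X had a gained bin within 1 kb of the TSS. All animals were female, and the difference between X and the autosomes was not tested.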

How the results depend on the processing

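The 4 counts and the shares were recomputed under 8 alternatives and 1 added after seeing the data. Of 64 values, 24 stayed within 1.5 times of the count or within the Wilson interval of the share, and 40 did not. With chromosome X included none moved beyond these limits.

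With states 1 and 2 counted together at 12 months, 1784 bins were gained in both, 33.2% lay within 1 kb of a TSS, 66.2% within 1 kb of state 1 or 2 in SD 3m and 74.1% in states 3 to 5, while 6.62% of genes had a gained bin and the CpG ratio was 0.485. With only state 1 left out at 3 months, the gained bins were 19965, with 5298 in both, 8815 SD only and 5852 CR only. The shares were then 62.3% near a TSS, 88.7% near state 1 or 2, 19.0% in states 3 to 5 and 29.5% of genes, with a CpG ratio of 0.590, as bins of state 2 enter by construction. With only stretches of at least 2 bins, the shares were 35.6%, 57.2%, 57.3% and 2.55%, with a ratio of 0.576.

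Leaving out bins within 200 bp of a state 1 or 2 bin in SD 3m left 696 gained in both, 30.1% near a TSS, 55.5% in states 3 to 5, 2.496% of genes and a ratio of 0.527. Leaving out those within 1 kb left 2259 bins, with 298 in both, 1332 SD only and 629 CR only, 20.2% near a TSS, 48.4% in states 3 to 5, 0.669% of genes and a ratio of 0.423. A TSS distance of 2 kb gave 48.8% of bins and 6.30% of genes, and the TSS of every curated transcript 41.5% and 5.46%. Without the 2 windows of 1 Mb with the most members (added later), 40.8% lay near a TSS and 65.5% near state 1 or 2, with a ratio of 0.577. SD only was the largest class under each of these settings.

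No paired analysis was possible because each group has 1 segmentation of merged libraries. Depth per bin is unknown, so it cannot be said which states rest on few reads.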
